A study of Homo sapiens with 2 samples.

Results

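The 949 regions described here were the distal LDB1 peaks of NB4 cells that carried the E-box read by TAL1 at their centre and no other partner motif. They were chosen from 11046 peaks by 2 conditions. The midpoint of the peak lay over 1000 bp from the transcription start site (TSS) of any transcript in GENCODE release 44, which left 8906 distal peaks. The central 200 bp held the E-box, CAGATG or CAGCTG, on either strand, and none of 4 other motifs. These were the motifs of GATA factors (A or T, then GATAA or GATAG), AP-1 (TGACTCA or TGAGTCA), ETS factors (AGGAAGT or CGGAAGT) and RUNX factors (TGCGGT or TGTGGT). The members were 8.59% of all peaks and 10.7% of the distal ones. No peak height or other readout entered this choice.

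NB4 is a human acute promyelocytic leukemia cell line. CUT&Tag, in which an antibody leads a transposase to the bound protein so that the DNA nearby is cut and tagged, was done with 1 library on an LDB1 antibody and 1 library on IgG. The label of the LDB1 library names overexpression of LDB1 and that of the IgG library names untreated cells, so antibody and treatment cannot be told apart. Neither library was replicated, so the 2 could not be tested against each other. The peaks came with a position and a length but with no height, summit or read count, so the depth behind them is unknown. All intervals are at 95% and cover counting error alone, for 1 library.

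An E-box is a short site bound by pairs of basic helix-loop-helix (bHLH) proteins. In blood progenitors TAL1 or its relative LYL1 pairs with an E protein such as TCF3 and reads such sites. LMO2 and LDB1 do not touch DNA themselves. LMO2 joins the bHLH pair to LDB1, and in red cell precursors the same assembly takes in GATA1 on a composite site, made of part of an E-box and a GATA motif at a fixed spacing. The regions described here had an E-box without such a GATA motif at the centre.

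Among the 3041 distal peaks with an E-box at the centre, 2092 also had at least 1 of the 4 other motifs there, and the members were the remaining 31.2%. GATA was found in 52.2% of the 3041, compared with 20.7% for RUNX, 11.3% for AP-1 and 6.15% for ETS. These motifs also differ in how often they occur outside peaks. Windows 1000 bp to either side of the members held 1.73 GATA, 0.972 RUNX, 0.205 ETS and 0.179 AP-1 motifs per kb. The 4 shares were not compared with a background, so their order is a description. Of the members, 786 (82.8%) held 1 E-box, 143 held 2, 17 held 3 and 3 held 4, for a total of 1135 hexamers. CAGATG alone was present in 503 members, CAGCTG alone in 364 and both in 82. By the same motif rule a further 290 peaks qualified but lay near a TSS.

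The sequences of some members are given to show what the rule selects, on hg38, 5′ to 3′, with the E-box in capitals. A CATCTG in capitals is CAGATG read on the other strand. The first group holds the central 200 bp of members at genes of the LDB1 complex, of red cells and platelets and of 1 further bHLH factor, MITF, since these genes are described below.
LMO2 intron 2, chr11:33874694-33874893, plus strand: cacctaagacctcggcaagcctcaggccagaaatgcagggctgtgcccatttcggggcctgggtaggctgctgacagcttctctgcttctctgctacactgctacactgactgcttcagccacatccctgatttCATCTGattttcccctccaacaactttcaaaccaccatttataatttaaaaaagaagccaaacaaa
near LYL1, chr19:13104643-13104842, plus strand: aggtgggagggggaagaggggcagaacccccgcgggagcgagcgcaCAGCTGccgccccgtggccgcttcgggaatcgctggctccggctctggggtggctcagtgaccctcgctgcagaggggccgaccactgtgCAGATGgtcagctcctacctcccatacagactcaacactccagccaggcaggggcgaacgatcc
MITF intron 1, chr3:69791935-69792134, plus strand: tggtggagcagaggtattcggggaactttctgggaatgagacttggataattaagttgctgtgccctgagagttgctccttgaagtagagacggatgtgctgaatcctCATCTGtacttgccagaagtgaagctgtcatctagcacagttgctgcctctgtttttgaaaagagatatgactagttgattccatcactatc
KLF1 intron 2, chr19:12885069-12885268, plus strand: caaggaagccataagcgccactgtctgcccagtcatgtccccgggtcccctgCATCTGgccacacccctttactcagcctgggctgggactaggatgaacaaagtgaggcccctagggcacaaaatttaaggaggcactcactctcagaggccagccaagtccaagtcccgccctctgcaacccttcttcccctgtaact
beyond SLC4A1, chr17:44247644-44247843, plus strand: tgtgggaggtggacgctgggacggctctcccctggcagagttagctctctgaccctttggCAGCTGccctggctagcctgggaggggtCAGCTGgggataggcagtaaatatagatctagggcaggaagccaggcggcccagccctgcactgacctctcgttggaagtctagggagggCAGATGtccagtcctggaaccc
ITGB3 intron 5, chr17:47286541-47286740, plus strand: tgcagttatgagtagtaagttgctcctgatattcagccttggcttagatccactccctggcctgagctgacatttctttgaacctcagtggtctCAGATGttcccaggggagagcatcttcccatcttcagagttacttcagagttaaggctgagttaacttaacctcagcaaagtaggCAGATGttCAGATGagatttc
The second group holds the centres of 2 of the longest members, chosen by length since no height is given.
intergenic, nearest coding TSS EHF, chr11:34602787-34602986, plus strand: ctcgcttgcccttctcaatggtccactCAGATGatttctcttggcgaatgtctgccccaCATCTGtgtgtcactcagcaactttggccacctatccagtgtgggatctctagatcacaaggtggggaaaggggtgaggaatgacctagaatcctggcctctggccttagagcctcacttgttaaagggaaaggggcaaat
CDH23 intron 11, chr10:71638734-71638933, plus strand: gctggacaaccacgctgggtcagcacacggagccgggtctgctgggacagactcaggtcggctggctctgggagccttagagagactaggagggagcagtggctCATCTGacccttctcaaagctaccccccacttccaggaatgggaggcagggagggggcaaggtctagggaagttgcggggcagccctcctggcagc

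Results showed that 71 members (7.48%) shared one recurring sequence, and that the E-box was part of it. The sequence was recognised by the 50 most frequent stretches of 14 bases among the members. Each of the 71 held at least 13 of these 50, and 0 members held between 1 and 4. Each had a single E-box, in the CAGATG form. The 71 lay on 20 chromosomes with at most 6 on any of them, 35 in introns, 33 between genes and 3 in exons, and their lengths ran from 230 to 2986 bp with a median of 444 bp. For 64 of the 71 the central 31 bases had further copies in hg38, and over all 71 the median was 798 and the maximum 2159 copies. Among the other 878 members 7.63% had such a repeated centre. The sequence was present in 122 peaks of the whole list, 89 of them distal and free of the 4 motifs, and in 10 of the 9628 motif-free flanking windows used below. Whether reads from one copy were placed on another was not tested, since the list holds no alignments. Results that rest on these members are given with and without them.

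To investigate whether the E-box was more frequent at peak centres than beside them, the members were set in their wider class. This class was the 3033 distal peaks with none of the 4 motifs in the central 200 bp, and it was compared with the windows 1000 bp to either side of distal peaks that also had none of the 4. The E-box was found in 949 of the 3033 centres (31.3%, interval 29.7 to 33.0%) and in 2195 of 9628 flanks (22.8%, 21.97 to 23.65%). The difference was 8.49 points (6.66 to 10.4) and the ratio 1.37 (1.29 to 1.46). Without the recurring sequence the share was 29.8%, the difference 7.02 points (5.19 to 8.89) and the ratio 1.31 (1.22 to 1.40).

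Peak centres were richer in G and C than flanks, at 53.0% compared with 47.7%, and CAGCTG is itself a GC-rich hexamer. With the flanks weighted to the GC content of the centres in classes of 5%, the flank share rose to 26.3% and the difference fell to 5.01 points (3.07 to 6.96), a ratio of 1.19 (1.12 to 1.27). With the recurring sequence left out as well, the difference was 3.43 points (1.47 to 5.38) and the ratio 1.13 (1.06 to 1.21). The difference was not spread evenly over the classes. Between 45 and 50% GC, 32.8% of the centres and 22.2% of the flanks had an E-box, and between 50 and 55% the shares were 30.7% and 24.0%. From 55 to 60% they were 32.2% and 31.4%, a difference of 0.883 points (−3.59 to 5.47), and the intervals of all richer classes also included 0. Between 40 and 45% the difference was 3.77 points (−1.15 to 9.19), and it was −1.18 points (−5.91 to 4.22) without the recurring sequence.

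**Figure D1:**
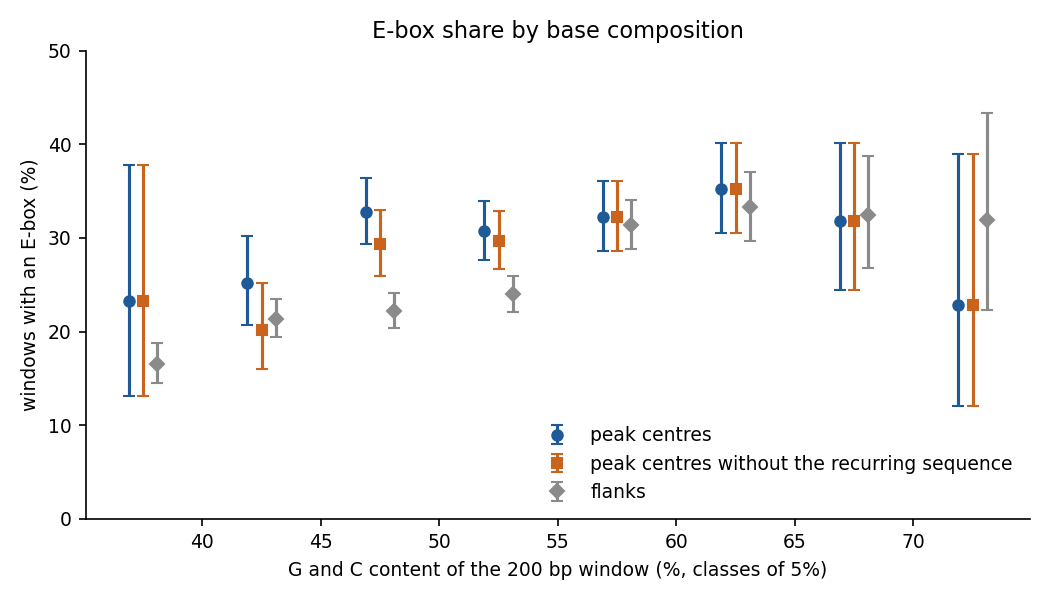
Share of windows with an E-box (%, vertical axis) by the G and C content of the 200 bp window (classes of 5%, horizontal axis; classes with under 20 peak centres are left out). Points are shares with 95% Wilson intervals for peak centres (circles), peak centres without the recurring sequence (squares) and flanks (diamonds). The centres stand above the flanks between 45 and 55% GC, and the intervals overlap widely from 55% on.

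The share of centres with an E-box also varied with peak length. In the shortest class (229 to 290 bp) 25.5% of 750 centres had one, compared with 33.6% at 291 to 403 bp, 35.1% at 404 to 660 bp and 30.8% in longer peaks. The 3 longer classes together exceeded the shortest by 7.74 points (3.98 to 11.3), and by 7.57 points (3.82 to 11.1) without the recurring sequence. This contrast was not planned and sets the class with the lowest share against the rest, so its interval understates the uncertainty. It was also not weighted by GC content. The intervals of the 3 longer classes overlapped.

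Next, the position and form of the E-box inside the window, which the rule does not use, were examined. Of the 1135 hexamers in members, 588 (51.8%) had their centre within 50 bp of the midpoint, compared with 52.5% of 2581 hexamers in flanks that met the same motif rule. The difference was −0.693 points (−4.18 to 2.79), so the E-boxes were not detectably gathered at the peak midpoint. The midpoint is a coarse stand-in for the summit. The GATA motif over all distal peaks was within 50 bp in 53.5% of its occurrences, compared with 51.8% in flanks, a difference of 1.71 points (−0.0161 to 3.44). In the members with the recurring sequence 30 of 71 E-boxes (42.3%) were that close.

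**Figure D2:**
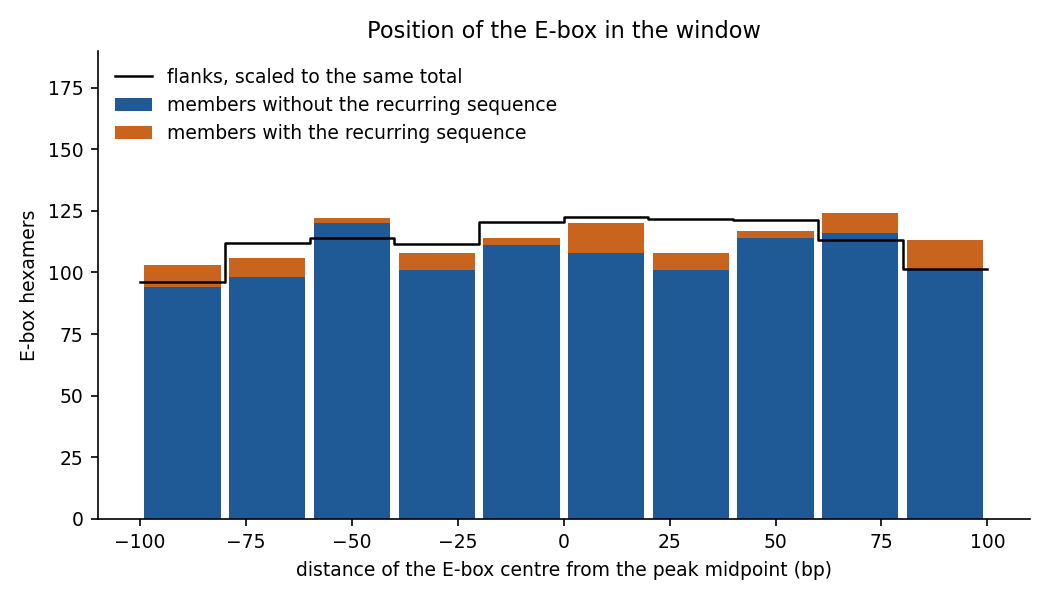
Number of E-box hexamers in the members (vertical axis) by the distance of the hexamer's centre from the peak midpoint (bp, in steps of 20, horizontal axis). Bars stack the members without and with the recurring sequence, and the line gives the hexamers of flanks scaled to the same total. The bars follow the line without a rise at the midpoint.

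A difference in the form of the E-box was not detectable either. CAGATG made up 56.7% of the hexamers in members and 57.0% in flanks, a difference of −0.292 points (−3.76 to 3.15). Without the recurring sequence, whose 71 E-boxes are all CAGATG, the share was 53.9% and the difference −3.15 points (−6.70 to 0.396). Of the 32 shares of single bases at the 2 positions on either side of each form, 10 differed from the flanks beyond their interval, and 5 did so without the recurring sequence. Around CAGCTG, a form that the recurring sequence does not hold, C directly after the hexamer was at 35.0% compared with 27.6% in flanks, a difference of 7.41 points (2.498 to 12.45). Since CAGCTG reads the same on both strands, each such site was read on the plus strand only. The mirror image of this excess, G directly before the hexamer, was at 29.4% and 27.7% (1.72 points, −3.01 to 6.62). For CAGATG without the recurring sequence, the largest of 16 differences was C at the second position after the hexamer, at 28.6% compared with 21.8% (6.77 points, 2.58 to 11.1). These shares of single bases were not weighted by GC content. The windows of members without the recurring sequence were at 53.9% GC and those of the flanks under the rule at 50.2%.

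The 2 E-box forms of the rule were then placed among all 10 hexamers of the shape CANNTG. This was done in the 2944 centres and 9618 flanks that did not hold the recurring sequence. CAGCTG (ratio 1.43, 1.29 to 1.58) and CAGATG (1.26, 1.15 to 1.39) were both more frequent at the centres. So were CACGTG (1.48, 1.19 to 1.85), the site of MYC and USF proteins, and CACATG (1.21, 1.09 to 1.35). CACCTG, read by ZEB repressors and E proteins, was not (0.974, 0.900 to 1.05), nor was CAACTG (1.12, 0.983 to 1.28), and CATATG (0.692) and CAAATG (0.779) were less frequent. Weighting the flanks by GC content changed this order. CAGATG stayed above 1 at 1.18 (1.08 to 1.31) and CACATG at 1.21 (1.08 to 1.34), and CAACTG came to 1.19 (1.04 to 1.36). CATATG was then at 1.08 (0.829 to 1.41) and CAAATG at 1.01 (0.889 to 1.15), while CAGCTG fell to 1.09 (0.982 to 1.21), CACGTG to 1.14 (0.905 to 1.42) and CACCTG to 0.767 (0.708 to 0.831).

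To see whether the members truly lacked the partner motifs, the rest of each peak outside the central 200 bp was searched. Results showed that most members held a partner motif elsewhere in the peak. The whole peak held a GATA motif in 478 members (50.4%), a RUNX motif in 246 (25.9%), an AP-1 motif in 103 (10.9%) and an ETS motif in 95. A full composite of CTG and a GATA motif 7 or 8 bases on was present in 133. These counts depend on peak length and were not made in flank sequence of equal length. Flanks of the members held 1.73 GATA and 0.972 RUNX motifs per kb, so many peaks would hold one without any excess. Densities per kb take length into account. In the 345971 bp of member peaks outside the window there were 0.379 composites per kb, compared with 0.116 per kb in flanks of the same peaks, a ratio of 3.27 (2.32 to 4.60). The ratio was 1.35 (1.22 to 1.499) for GATA, 1.84 (1.36 to 2.48) for AP-1 and 1.52 (1.14 to 2.03) for ETS, and 1.04 (0.899 to 1.205) for RUNX. The E-box itself had a ratio of 1.44 (1.29 to 1.62) in this outer sequence. In the distal peaks with none of the 5 motifs at the centre its ratio was 1.48 (1.37 to 1.60). None of these ratios was weighted by GC content. In these 2084 distal peaks with none of the 5 motifs the composite ratio was 5.05 (3.88 to 6.58) and the GATA ratio 1.32 (1.23 to 1.41). Both intervals overlapped those of the members, but overlap does not show that the ratios are equal. A difference between the 2 classes was not tested.

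**Figure D3:**
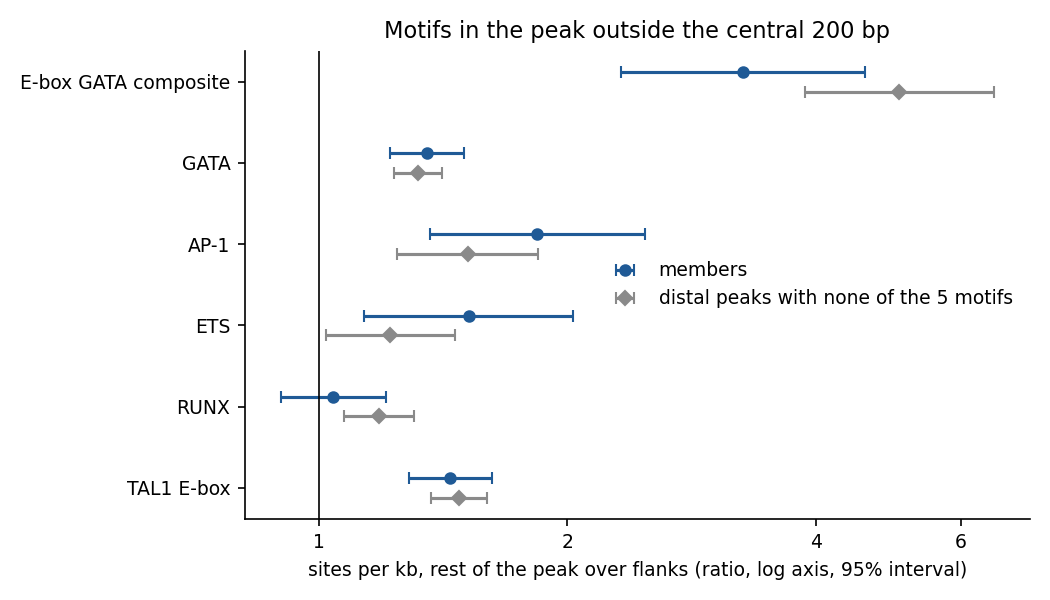
Ratio of motif sites per kb in the peak outside its central 200 bp to sites per kb in the flanks (horizontal log axis), with 95% intervals, for members (circles) and for distal peaks with none of the 5 motifs at the centre (diamonds). The composite has the highest ratio in both, and the RUNX ratio of the members includes 1.

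A total of 348 members (36.7%) had none of the 4 motifs anywhere in the peak, and these were short, with a median of 318 bp and a longest peak of 901 bp. The 601 with a partner motif elsewhere in the peak had a median of 523 bp, and a longer peak has more sequence in which to hold one. Among all 1166 distal peaks with none of the 4 motifs in the whole peak, 29.8% had the central E-box, 7.05 points above the flanks (4.35 to 9.86). Without the recurring sequence the share was 28.4%, 5.61 points above the flanks (2.92 to 8.43). The flanks in these 2 comparisons were not weighted by GC content. Of the 348, 27 carried the recurring sequence, and 189 (54.3%) had another peak with a GATA motif within 10 kb. That share was not counted for other classes, so whether it is high is not known. Another LDB1 peak of any kind lay within 10 kb of 60.0% of all members. For peaks with none of the 5 motifs this was 58.3%, and for all other distal peaks 50.4%.

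The rule excluded only the GATA motif with its usual neighbours, so weaker forms were counted. The bare letters GATA were present in 36.7% of members and 35.1% of flanks under the same motif rule, a difference of 1.59 points (−2.03 to 5.27). With flanks weighted by GC content the ratio was 1.24 (1.11 to 1.38). CTG followed after 8 bases by GATA, a weak form of the composite, was present in 23 members (2.42%) and 21 of 2195 flanks (0.957%), a difference of 1.47 points (0.520 to 2.70) and a ratio of 2.53 (1.41 to 4.55). None of these 23 carried the recurring sequence. At 7 bases the shares were 0.948% and 0.911%. Of 16 spacings from 0 to 15 bases, 4 had an interval above 0, namely 4, 8, 9 and 12 bases, so the excess was not confined to 8 bases. Examples at 8 bases, with CTG and GATA in capitals, are shown because they resemble the site of the complex. These 4 were picked after their values were seen.
intergenic, nearest coding TSS MYLIP, chr6:15906701-15906739, minus strand: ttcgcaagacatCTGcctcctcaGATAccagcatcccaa
FGD5 intron 1, chr3:14836179-14836217, plus strand: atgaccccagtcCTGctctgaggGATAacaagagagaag
intergenic, nearest coding TSS CSF3R, chr1:36493921-36493959, minus strand: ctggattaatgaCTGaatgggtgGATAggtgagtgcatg
intergenic, nearest coding TSS E2F1, chr20:33690085-33690123, plus strand: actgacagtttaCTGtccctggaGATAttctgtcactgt

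Among 20 motifs of other factors, 3 were more and 2 less frequent in members than in flanks that met the rule. The motif of KLF and SP factors (CCNCNCCC) was present in 30.9% of members and 22.6% of flanks, a ratio of 1.36 (1.21 to 1.54), and the ratio was 1.13 (1.01 to 1.28) with GC weighting but 1.05 (0.926 to 1.19) with GC weighting and without the recurring sequence. The nuclear receptor half-site (AGGTCA) had a ratio of 1.24 (1.06 to 1.45), but 1.02 (0.860 to 1.22) without the recurring sequence, and the SMAD site (CAGACA) 1.21 (1.04 to 1.41). The IRF motif, GAAA followed after 2 bases by GAAA, was present in 8 members (0.843%) and in 2.41% of flanks, and CCAAT, the NFY site, in 17.7% and 21.5%. Without the recurring sequence the NFY interval included 0, while those of the TEAD site (GGAATG, 1.31, 1.06 to 1.61) and the REL site (1.28, 1.06 to 1.55) excluded it. With GC weighting the motifs whose interval excluded 0 were KLF and SP and the MYB site (CNGTTA, ratio 1.23, 1.02 to 1.48). With GC weighting and without the recurring sequence they were TEAD (1.30, 1.05 to 1.62) and MYB (1.25, 1.02 to 1.51). REL was then at 1.04 (0.858 to 1.25). The intervals of CEBP (TTGCNNAA, ratio 0.913), MEIS and TGIF (TGACAG, 0.994), STAT (TTCNNNGAA, 0.967), CTCF (1.80 on 7 members) and YY1 (AAGATGGC, 0.730) included 1 with and without GC weighting. So did those of GFI1, CREB, ATF4, the PBX and HOX site (TGATTNAT), the ETS core (CCGGAA), TCF7 and LEF1 (CTTTGA) and FOX factors (TGTTTAC), with ratios from 0.330 for GFI1 on 2 members to 3.47 for CREB on 3. Sequences of 6 bases were ranked without reference to motifs, among 1241 that were found in at least 5% of the members. The 5 highest ratios were those of ACCGCC (3.41), AGGGCG (3.39), CGGTGC (3.10), CACCGC (2.76) and AACGAG (2.68), and between 30 and 60 of the members with each carried the recurring sequence. Without it the highest ratio was 1.77, for GTGCAC in 68 members.

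The members were then compared with 3 other classes in 8 measures, which gave 24 differences. The classes were all 7957 other distal peaks, the 2084 distal peaks with none of the 5 motifs and the 1028 distal peaks with the composite. Against the peaks with none of the 5 motifs, 0 of the 8 intervals excluded 0. Without the recurring sequence 1 did, since the central bases were repeated in 7.63% of the members and 14.5% of those peaks (−6.84 points, −9.08 to −4.41). Against peaks with the composite 6 of 8 differences had an interval without 0, and against all other distal peaks 3 of 8 did. Against the composite class 5 of 8 did so without the recurring sequence, since the difference in repeated central bases went from 6.12 points (3.40 to 8.89) to 0.0286 points (−2.35 to 2.47). With intervals at 0.05 divided by the 24 differences, 5 of the 9 such differences were left. The 4 that were lost were length and repeated sequence against all other distal peaks, and exons and distance to the TSS against peaks with the composite.

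**Figure D4:**
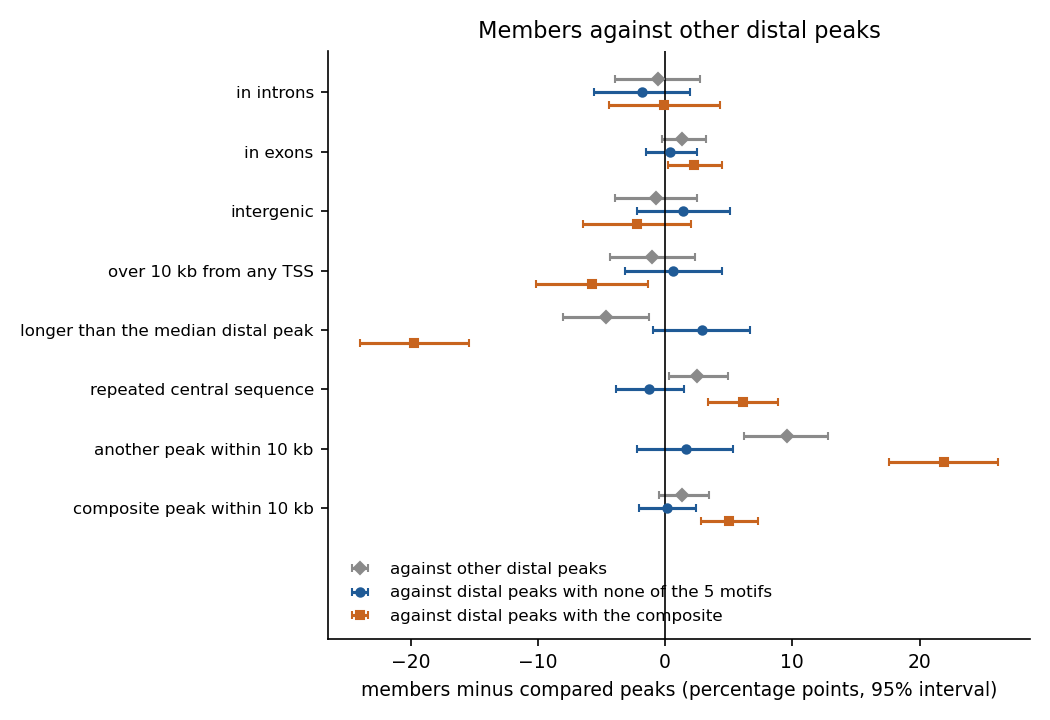
Difference in share between the members and each of 3 other classes of distal peaks (percentage points, horizontal axis) with 95% intervals, for 8 measures. All 8 intervals against peaks with none of the 5 motifs include 0, while peaks with the composite are more often long and less often have another peak within 10 kb.

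The length of the members had a median of 422 bp, with quartiles of 309 and 656 bp and a range from 229 to 2986 bp. The median was 400 bp for peaks with none of the 5 motifs, 450 bp for all other distal peaks and 544 bp for peaks with the composite. Longer than the median distal peak (446.5 bp) were 45.8% of the members and 65.6% of the peaks with the composite, a difference of −19.7 points (−24.0 to −15.4). Against peaks with none of the 5 motifs the difference was 2.89 points (−0.912 to 6.71).

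**Figure D5:**
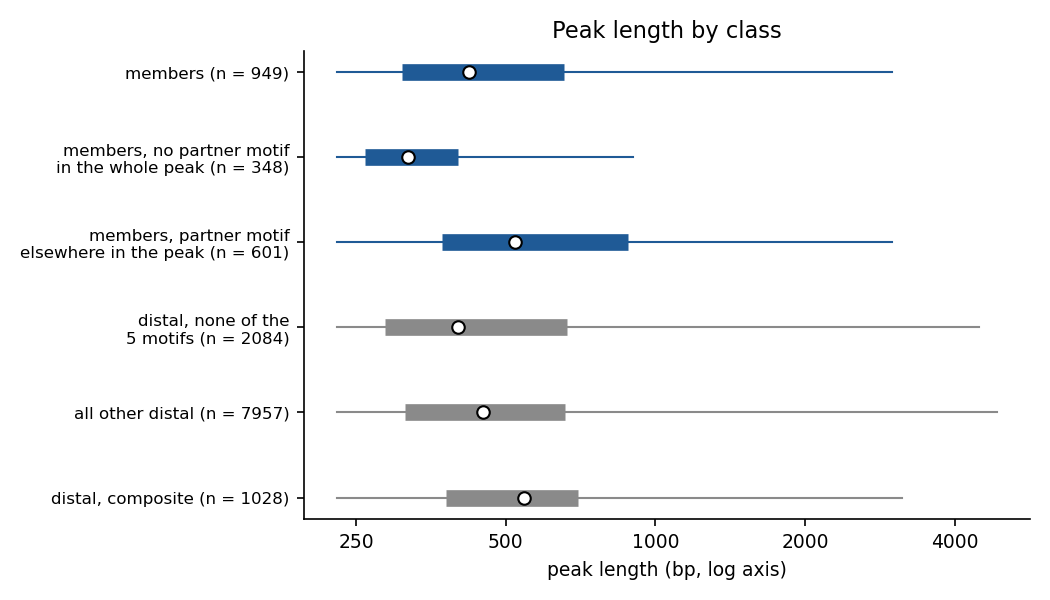
Peak length (bp, log axis) by class, where the thin line is the full range, the thick bar runs between the quartiles and the circle is the median. The members with no partner motif in the whole peak are the shortest class (median 318 bp) and the peaks with the composite are the longest (median 544 bp).

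Introns held 57.4% of the members, intergenic sequence 35.4% and exons 7.17%, and for all other distal peaks the shares were 58.0%, 36.2% and 5.83%. The median distance to the nearest TSS was 8158 bp, with quartiles of 3548 and 18880 bp, and 5 members lay over 100 kb away. Over 10 kb from any TSS were 42.8% of the members and 48.5% of the peaks with the composite (−5.76 points, −10.1 to −1.36), and at the stricter interval for 24 differences this included 0 (−12.6 to 1.14). Near the limit of 1000 bp, the 2 closest members were 1013 bp (chr1:226350062-226350306, in an intron of ENSG00000289348) and 1017 bp (chr3:37241984-37242365, in an exon of GOLGA4-AS1) from a TSS. The 2 closest peaks that met the motif rule but not the limit were 997 bp (chr8:144325371-144325970, in intron 1 of DGAT1) and 994 bp (chr22:39960990-39961793, in intron 4 of GRAP2) away. By chromosome, members made up between 6.67% (X, 14 of 210) and 14.9% (chromosome 16, 44 of 296) of the distal peaks, with intervals of 4.01 to 10.9% and 11.3 to 19.4%. These were the lowest and the highest share, and a difference between chromosomes was not tested. The intervals treat peaks as independent, although 108 members had another member within 10 kb.

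The members were often found in company. Another LDB1 peak lay within 10 kb of 60.0% of the members, compared with 50.4% for all other distal peaks (9.57 points, 6.24 to 12.8), 58.3% for peaks with none of the 5 motifs and 38.0% for peaks with the composite (21.9 points, 17.6 to 26.2). A peak with the composite lay within 10 kb of 9.38% of the members. The share was 8.04% for all other distal peaks (1.34 points, −0.469 to 3.44). For peaks with none of the 5 motifs it was 9.26% (0.117 points, −2.03 to 2.45). For the peaks with the composite it was 4.38% (5.001 points, 2.78 to 7.30). This last difference fell to 0.856 points (−0.840 to 2.64) when peaks under 1 kb apart were merged, an alternative added after the data were seen. Another member lay within 10 kb of 108 members (11.4%). The central 31 bases were repeated in hg38 in 13.8% of the members and 11.3% of all other distal peaks (2.48 points, 0.310 to 4.92). Without the recurring sequence this turned to 7.63% and 10.9% (−3.31 points, −5.04 to −1.25).

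To place the members at genes, genes were extended by 3 kb at both ends. Of 20033 protein-coding genes, 507 (2.53%) had a member and 3898 (19.5%) had any LDB1 peak. GSE1 had the most, with 11 members, followed by CCND3 and GABBR2 with 5 each, and these 3 were picked after their values were seen. The lists below were chosen with earlier results of these data known, so their counts are a description.

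Among 20 genes of the LDB1 complex and its partners 4 had a member, and 12 had any peak. LMO2, the bridging protein, had a member of 296 bp in intron 2 (chr11:33874647-33874942), 4265 bp from the TSS, with 1 CAGATG site 37 bp from the midpoint and no GATA motif in the whole peak. LYL1 had one of 503 bp 1582 bp from its TSS and outside the gene (chr19:13104492-13104994), with 1 E-box of each form and again no GATA motif. CBFA2T3, a corepressor of the complex also called ETO2, had one of 1219 bp outside the gene, 1787 bp from the TSS (chr16:88978385-88979603), with 1 GATA motif in the peak and a peak with the composite within 10 kb. ZFPM1, the GATA cofactor FOG1, had 2 members in intron 3, of 295 bp and 677 bp (chr16:88489316-88489610 and chr16:88508488-88509164), neither with a GATA motif. Of these 5 peaks at partner genes 1 had a GATA motif, and 50.4% of all members had one. The 5 are too few for a comparison, and a short peak has less sequence in which to hold a motif.

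Of 26 genes of bHLH, ID and ZEB factors, which bind E-boxes or block their use, 3 had a member and 12 had any peak. Beside LYL1 these were MITF, a bHLH leucine zipper factor, with a peak of 560 bp in intron 1 (chr3:69791756-69792315), and BHLHE40, a bHLH repressor, with one of 392 bp (chr3:4977411-4977802) in an intron of BHLHE40-AS1. The MITF peak had its CAGATG 11 bp from the midpoint and a composite elsewhere in the peak.

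Red cell genes had a member in 5 of 30, of which 4 are described, and 25 of the 30 had any peak. KLF1, a transcription factor of red cell precursors, had one of 628 bp in intron 2 (chr19:12884856-12885483), with 1 GATA motif in the peak. SLC4A1, the anion exchanger band 3, had one of 439 bp beyond the gene (chr17:44247525-44247963), with 3 E-boxes and no GATA motif, and a peak with the composite within 10 kb. SPTB, beta spectrin of the membrane skeleton, had 2 in intron 1 (chr14:64841213-64842284 and chr14:64846186-64846611), of 1072 bp and 426 bp, and both had GATA motifs in the peak outside the window. The member counted for RHD, a blood group gene, lay in RSRP1 (chr1:25287051-25287444), 14699 bp from the RHD TSS, and hg38 holds 2 copies of its central 31 bases, so its reads may be shared between them.

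Of 20 megakaryocyte genes 2 had a member and 7 had any peak. One of them, ITGB3, integrin beta 3 of platelets, had one of 237 bp in intron 5 (chr17:47286523-47286759), 4412 bp from the nearest coding TSS, with 3 CAGATG sites at −3, 82 and 90 bp from the midpoint and no GATA motif. Among 24 stem cell and leukemia factors 1 had a member, STAT5B, in intron 1 (chr17:42242631-42243007), and it carried the recurring sequence. Of the 19 candidate targets of the study 3 had a member, LYL1, CELF2 and DLGAP1-AS1, and 13 had any peak. CELF2, an RNA-binding protein, had one of 285 bp in intron 2 (chr10:11180310-11180594) that also held a composite. The paper chose these candidates partly by binding in ChIP-Seq datasets that included LDB1, so LDB1 peaks there follow in part from that choice. The list also holds non-coding genes such as DLGAP1-AS1, while the shares of all genes given above are for protein-coding genes.

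Granulocyte genes had a member in 0 of 25 and any LDB1 peak in 10, and the lists of mast cell, basophil and eosinophil genes and of lymphoid genes had 0 of 20 each, with 3 genes of each list holding any peak. With 2.53% of all protein-coding genes holding a member, lists of this size cannot show a lower share. With 10 kb around each gene, SSBP2, EPB42, GYPC, SLC25A37, PRG2 and SLC25A45 of these lists were added, and the granulocyte and lymphoid lists were still at 0. In all, 16 of 191 list genes had a member, through 18 peaks.

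The 10 longest members with a central sequence found once in hg38 ran from 2100 to 2922 bp. Each had at least 2 GATA motifs in the whole peak, and 6 of them also had a full composite there. Flanks of the members held 1.73 GATA motifs and 0.116 composites per kb, so peaks of this length can hold several GATA motifs without any excess. Whether these 10 held more than their length gives was not tested. The longest (chr16:88990661-88993582) lay in an exon of ENSG00000259989, 14914 bp from the TSS of CBFA2T3. The next (2604 bp, chr11:34601586-34604189) was intergenic, 18206 bp from the TSS of EHF, an ETS factor, with 7 GATA motifs. Another, of 2180 bp (chr2:28355040-28357219), was 36319 bp from FOSL2, a subunit of AP-1. Those in introns were in CMIP (2352 bp), CDH23 (2326 bp), UBE2O (2293 bp), FBXL18 (2282 bp), CMBL (2150 bp) and RREB1 (2100 bp), and one of 2224 bp lay between genes, 5107 bp from NRTN. UBE2O, a ubiquitin ligase that clears proteins during red cell maturation, was the one of these 10 that had a peak with the composite within 10 kb. In the window 3 members had 4 E-boxes each. They lay 54899 bp from SDR9C7 (chr12:56878722-56880297), 65062 bp from PSEN2 (chr1:226804378-226805867) and in intron 1 of FER1L6 (chr8:123921660-123922674). Of the 17 members with 3 E-boxes, the longest was that in CMBL, and the next lay 7825 bp from GYPC, glycophorin C, where the central bases occur 39 times (chr2:126647610-126649007).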

How the data were processed

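The authors aligned the CUT&Tag reads of NB4 cells to hg38 with Bowtie2 2.4.4 and called LDB1 peaks from read pairs with MACS3 3.0, per their methods and the submitters' processing notes. Whether IgG served as control, and how duplicates and ambiguous reads were treated, is not stated in the sources used here. The deposited values used here were other than a signal or count: the start, end and length of each LDB1 peak in bp. The IgG library has no peak list here and was not analysed.

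The members and lists were chosen with earlier results of these data known. Starts were read as counted from 1. Genes came from GENCODE release 44. Motifs were searched on both strands in 200 bp around the midpoint and in flanks 1000 bp away, of which 10.6% overlapped a peak. Flank windows of long peaks can lie inside the peak itself. Copies of the central 31 bases were counted in hg38 on both strands. Shares have Wilson intervals, differences Newcombe intervals, ratios log-normal intervals and densities Poisson intervals. With 1 library per group no test between groups was made.

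Members were named by a fixed rule: the 10 longest with a central sequence found once, the 5 with most E-boxes (ties by length), each within 3 kb of a listed gene, the 2 nearest to the TSS limit on either side and the 5 top sequences of 6 bases. Some items that the rule names are not reported here. The recurring sequence was noticed in the data, and leaving it out, GC weighting of motifs other than the E-box share and counts over the whole peak were added after seeing the data. The split of the E-box share by peak length was not planned. In a test on simulated data, of 1000 windows with an E-box written in, 1000 were found, and of 71 windows with a shared stretch, 71 were found. Python 3.11.15 was used with SciPy 1.17.1, numpy 2.4.6 and pandas 2.3.3.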

Additional observations from a re-analysis of the deposited data

How the results depend on the processing

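No paired analysis was possible because there was 1 library in each group. An alternative with fold enrichment or q-values was not run, as the list holds neither. The E-box difference of 8.49 points kept its direction and an interval above 0 in 15 of 15 alternatives, from 3.43 to 12.5 points, and the difference in neighbouring peaks did so in 6 of 6.

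The number of members was 599 with a window of 400 bp, 426 in peaks of at least the median length, 601 with any GATA excluded and 348 with motifs absent from the whole peak, each by construction. The position difference turned to 0.704 points with a window of 400 bp and 0.00801 points over 3000 bp from a TSS. The form difference was −4.09 points with a window of 100 bp, where its interval excluded 0, and turned to 0.0940 with 400 bp, 1.93 in peaks of at most 600 bp, 1.98 with any GATA excluded and 0.948 with merged peaks. The position values and the other form values had intervals that included 0, and the cause was not tested.

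The intron difference was 0.136 points among single-copy centres and 0.0881 points without the recurring sequence, against the composite class 0.673 and 0.679 points. At the stricter interval the differences in length (−4.66 points) and repeated sequence (2.48 points) no longer excluded 0, nor did those in exons and TSS distance against the composite class. Without the recurring sequence the repeated-sequence difference was −3.31 points, 5 bases beside the E-box differed and the top ratio of 6 bases was 1.77. With GC weighting 2 other motifs differed. The intergenic difference was 0.0686 points over 3000 bp from a TSS. The difference in composite neighbours turned to −0.496 points against other distal peaks with merging and, against peaks with none of the 5 motifs, to −0.625 over 3000 bp from a TSS, −0.405 within 50 kb and −0.390 with merging. The cause of these changes was not tested. Depth is unknown.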
